A study of Vitis vinifera with 60 samples.

Results

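Transcripts of class IV chitinases and thaumatin-like proteins were followed through the growth and ripening of red grape berries. The rows of the deposited expression table were taken by locus tag, VIT_05s0094g00320 to VIT_05s0094g00360 for the chitinases and VIT_02s0025g04230 to VIT_02s0025g04340 for the thaumatin-like proteins, and had to reach a mean of 1 FPKM over the 20 columns. FPKM is a fragment count scaled by transcript length and by library size. The ranges hold 17 locus tags in 14 rows, because the table joins some tags, and 12 of the 14 rows passed, out of 29287 rows in all and 18207 with such a mean. The 12 comprise 3 chitinase rows and 9 thaumatin-like protein rows. The row nearest below the limit was the chitinase VIT_05s0094g00320 at a mean of 0.704 FPKM, and the nearest above it was the thaumatin-like protein VIT_02s0025g04230 at 6.74 FPKM. The other row left out, VIT_02s0025g04240, was listed at 0 in all 20 columns.

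The tissue was berry pericarp, the whole berry without its seeds, of the Vitis vinifera cultivars Sangiovese, Barbera, Negroamaro, Refosco and Primitivo, all grown in a single experimental vineyard and picked in 2011. Each was sampled as pea-sized berries, as berries starting to touch each other in the bunch, as soft berries and as ripe berries at harvest, with no treatment. Per the labels, every one of the 20 combinations had 3 biological replicates. The table holds the authors' mean of each, so the spread between replicates and the read depth are unknown, the cultivar was the unit of replication, and every SD below is over the 5 cultivars.

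Class IV chitinases are secreted enzymes that cut chitin, the cell wall polymer of fungi, and thaumatin-like proteins are small secreted proteins related to osmotin and to the sweet protein thaumatin, several of which inhibit fungal growth. Both are counted among the pathogenesis-related proteins of plants. In grapes both accumulate in the ripening berry without infection, make up much of the soluble protein of ripe fruit and juice, and are the main proteins behind heat haze in white wine. The files pair no tag with a gene name, so no single gene is given a name or a role beyond its family, and none of the rows could be matched to a sequence.

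A few columns and values call for care before the results. Over the 18207 rows, deviations from the stage mean in the harvest column labelled Negroamaro correlated with those of the earlier Primitivo columns at r = 0.452 and with those of the earlier Negroamaro columns at r = -0.0976. The harvest column labelled Primitivo correlated with earlier Negroamaro at r = 0.442 and with earlier Primitivo at r = -0.0873. The other 18 columns were each closest to their own cultivar. Barbera pea-sized berries were so only narrowly, at r = 0.159 beside 0.0989 with Refosco, and the next lowest value was 0.318 in Barbera soft berries. These are correlations across rows, which are not independent replicates. The pair are called the harvest columns labelled Negroamaro and labelled Primitivo below. For some results that rest on them values with the pair exchanged are also given, and the others are by label only. Exact zeros also occur beside very high values. Of the 209 rows that reach 1000 FPKM somewhere, 17 (8.13%) are listed at 0 in at least 1 column, and the leading row of each family is among them. In such rows only the listing at 0 is stated, and whether it is a failed estimate was not tested.

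The leading chitinase row joins VIT_05s0094g00330 and VIT_05s0094g00340, 2 neighbouring genes whose reads the table does not separate. In pea-sized berries it stood at 11.03 FPKM in Sangiovese, 4.49 in Barbera, 54.4 in Negroamaro, 1.15 in Refosco and 57.5 in Primitivo, and in touching berries at 5.77, 7.15, 39.8, 0.381 and 70.7 FPKM in the same order. In soft berries it reached 5781 FPKM in Sangiovese, 8795 in Barbera, 9851 in Refosco and 15378 in Primitivo, and it was listed at 0 in Negroamaro. Harvested berries gave 12132 FPKM in Sangiovese, 5723 in Barbera and 6184 in Refosco, and both harvest columns labelled Negroamaro and Primitivo were listed at 0. Every soft and harvested value above 0 thus exceeded every earlier value by far, though the share of all rows with that pattern, zeros set aside, was not computed. Primitivo soft berries put this row 4th among all rows of their column.

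Tests were made on log2(FPKM + 1) with limma, and adjusted p-values are Benjamini-Hochberg values over all 18207 rows. With the zeros kept, the log2 change of the joined chitinase row at softening was 7.002 (SE 2.92, adjusted p = 0.0545 by limma, up in 4 of 5 cultivars), which did not pass 0.05. With exact zeros treated as missing, so that Negroamaro soft berries dropped out, it was 10.12 (SE 0.61, adjusted p = 1.19e-07 by limma, higher in 4 of the 4 cultivars left). From soft to harvested berries the direction rested on the zeros, with a log2 change of -2.83 (SE 2.92, adjusted p = 0.476) as listed and 0.40 (SE 0.70, adjusted p = 0.694) with them missing, neither past the threshold. In a bulk tissue such as pericarp, fewer cells of a type and less RNA per cell cannot be told apart.

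VIT_05s0094g00350, the next chitinase by tag, rose at softening, least of all in Sangiovese. In touching berries it was at 4.71 FPKM in Barbera, 1.30 in Negroamaro, 0.0964 in Refosco and 14.3 in Primitivo, and in soft berries at 699, 229, 381 and 845 FPKM. Sangiovese was listed at 0 in pea-sized and in touching berries and reached 1.26 FPKM when soft and 0.0665 FPKM at harvest. The change at softening over all cultivars was 5.80 on the log2 scale (SE 1.06, adjusted p = 0.000324 by limma, up in 5 of 5 cultivars). At harvest it stood at 416 FPKM in Barbera and 83.7 FPKM in Refosco, and at 747 and 289 FPKM in the Negroamaro-labelled and Primitivo-labelled columns. This row stayed above 0 in the 3 columns where the joined chitinase row beside it was listed at 0.

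VIT_05s0094g00360, the last chitinase of the array, ran the other way. It was present before softening, at 53.3 FPKM in Sangiovese, 35.5 in Barbera, 44.0 in Negroamaro, 45.5 in Refosco and 67.3 in Primitivo pea-sized berries, with 46.6, 29.1, 67.1, 60.4 and 45.6 FPKM in touching berries. In soft berries it fell to 1.71, 4.88, 9.60, 1.24 and 4.27 FPKM, changing by -3.42 log2 units (SE 0.56, adjusted p = 0.000122 by limma, lower in 5 of 5 cultivars). At harvest it was back at 19.4 FPKM in Sangiovese, 13.0 in Barbera and 222 in Refosco, and at 41.5 and 24.9 FPKM in the Negroamaro-labelled and Primitivo-labelled columns, a rise of 3.02 (SE 0.56, adjusted p = 0.000791, up in 5 of 5 cultivars). Every soft column lay below every other column of this row, a pattern shared by 0.472% of the rows tested. Refosco was lowest of the 5 in soft berries and highest at harvest.

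The chitinase below the level limit, VIT_05s0094g00320, never passed 5.50 FPKM, which it reached in Refosco at harvest. It was at 2.01 FPKM in Sangiovese at harvest and under 1 FPKM in 17 of the other 18 columns, the remaining one being Barbera pea-sized berries at 1.32 FPKM.

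**Figure D1:**
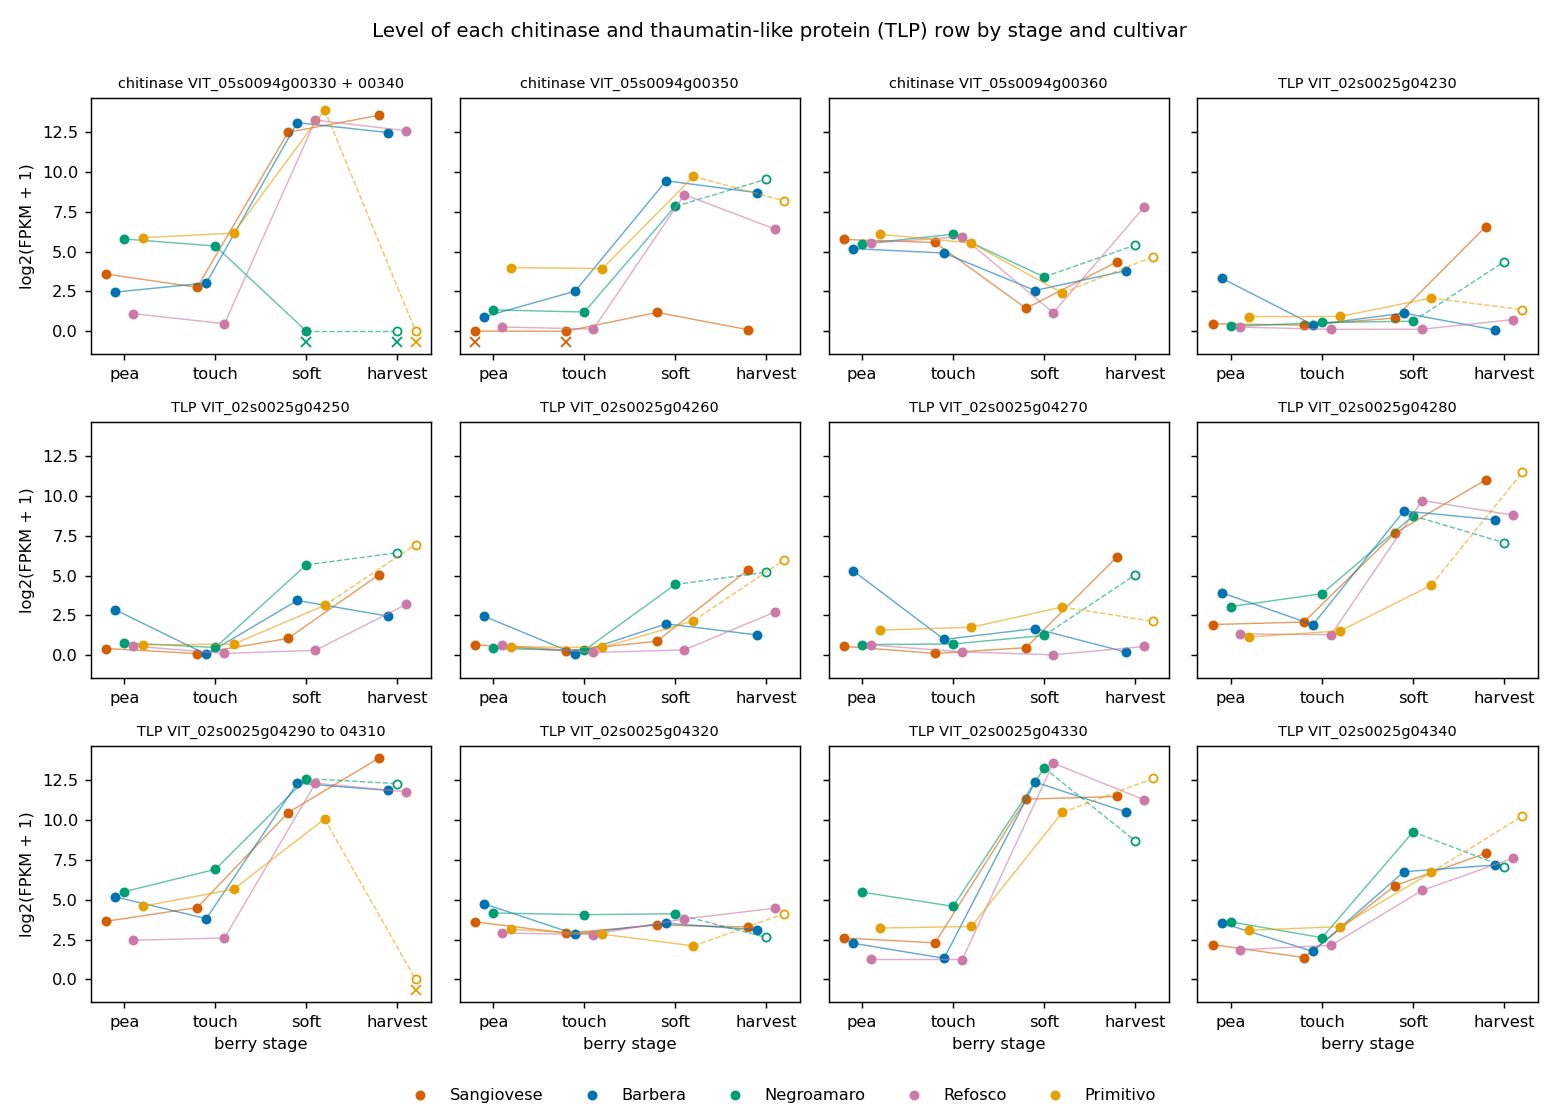
Level of each of the 12 rows, as log2(FPKM + 1), at the 4 berry stages, with a point per cultivar. Open points are the harvest columns labelled Negroamaro and Primitivo, crosses mark values listed at 0 in a column, and lines join the points of a label. VIT_05s0094g00360 dips in soft berries while most other rows climb there.

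Among the thaumatin-like proteins, the row that joins VIT_02s0025g04290, VIT_02s0025g04300 and VIT_02s0025g04310 had the highest mean, 2353 FPKM over the 20 columns. In touching berries it was at 21.8 FPKM in Sangiovese, 13.0 in Barbera, 119.5 in Negroamaro, 5.06 in Refosco and 49.6 in Primitivo, and in soft berries at 1425, 5116, 6275, 5120 and 1077 FPKM. The change of 6.86 on the log2 scale passed the threshold (SE 1.75, adjusted p = 0.00401 by limma, up in 5 of 5 cultivars). At harvest Sangiovese reached 15405 FPKM, the highest value of any row of both families, while Barbera stood at 3733, Refosco at 3538 and the column labelled Negroamaro at 5035 FPKM. The column labelled Primitivo was listed at 0. The change from soft to harvested berries was -1.59 (SE 1.75, adjusted p = 0.506) with this zero kept and 0.89 (SE 0.78, adjusted p = 0.397) with it missing, and neither passed the threshold.

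VIT_02s0025g04330 had the largest change of the 12 rows at softening with zeros kept. In touching berries it was at 3.89 FPKM in Sangiovese, 1.499 in Barbera, 23.0 in Negroamaro, 1.37 in Refosco and 8.99 in Primitivo. In soft berries it stood at 2559, 5381, 9953, 12267 and 1435 FPKM, changing by 9.66 log2 units (SE 0.89, adjusted p = 6.31e-07 by limma, up in 5 of 5 cultivars). Refosco went from the lowest touching value to the highest soft value, 8th among all rows of its column. At harvest it was at 2877 FPKM in Sangiovese, 1465 in Barbera, 2488 in Refosco, and 417 and 6331 FPKM in the Negroamaro-labelled and Primitivo-labelled columns. The change from soft to harvested berries did not pass the threshold (log2 change -1.29, SE 0.89, adjusted p = 0.273). By label it fell from 9953 to 417 FPKM in Negroamaro and climbed from 1435 to 6331 FPKM in Primitivo. With the pair of harvest columns exchanged the steps would be 9953 to 6331 and 1435 to 417 FPKM, both downward.

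VIT_02s0025g04280 and VIT_02s0025g04340, which flank these rows in the array, also rose at softening. VIT_02s0025g04280 went from 3.25 FPKM in Sangiovese, 2.77 in Barbera, 13.6 in Negroamaro, 1.45 in Refosco and 1.89 in Primitivo touching berries to 203, 536, 432, 845 and 20.1 FPKM in soft berries (log2 change 5.79, SE 1.02, adjusted p = 0.000248 by limma, up in 5 of 5 cultivars). Primitivo was lowest there, yet the harvest column labelled Primitivo was the highest at 2866 FPKM. That column stood beside 2086 FPKM in Sangiovese, 364 in Barbera, 446 in Refosco and 134 FPKM in the column labelled Negroamaro, and exchanged, the harvest columns would give 432 to 2866 FPKM in Negroamaro and 20.1 to 134 FPKM in Primitivo.

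VIT_02s0025g04340 went from 1.58, 2.37, 5.12, 3.40 and 8.93 FPKM in touching berries of Sangiovese, Barbera, Negroamaro, Refosco and Primitivo to 58.2, 108, 614, 47.1 and 104.4 FPKM in soft ones (log2 change 4.61, SE 0.57, adjusted p = 1.08e-05 by limma, up in 5 of 5 cultivars). Harvested berries had 241 FPKM in Sangiovese, 144 in Barbera and 195 in Refosco, and the Negroamaro-labelled and Primitivo-labelled columns had 134 and 1218 FPKM. Negroamaro was highest in soft berries and the column labelled Primitivo at harvest. By label Negroamaro thus fell from 614 to 134 FPKM. Exchanged, the harvest columns would give 614 to 1218 FPKM in Negroamaro and 104.4 to 134 FPKM in Primitivo. VIT_02s0025g04280, VIT_02s0025g04330 and VIT_02s0025g04340 were the 3 of the 12 rows in which every soft and harvested column lay above every pea-sized and touching column, against 4.73% of all rows tested. The leading joined row of each family missed this only through columns listed at 0, and the share over all rows counts zeros as listed.

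The 4 rows at the start of the array, VIT_02s0025g04230, VIT_02s0025g04250, VIT_02s0025g04260 and VIT_02s0025g04270, were low and uneven between cultivars. VIT_02s0025g04250 was at 1.09 FPKM in Sangiovese, 9.86 in Barbera, 50.3 in Negroamaro, 0.239 in Refosco and 7.77 in Primitivo soft berries, against at most 0.624 FPKM in touching berries, a rise of 2.43 (SE 0.83, adjusted p = 0.0221 by limma, up in 5 of 5 cultivars). Before softening its mean was 0.957 FPKM, under the level limit, so this rise is partly built into its membership. Its call did not hold without Negroamaro (log2 change 1.74, adjusted p = 0.112 by limma) or without Primitivo (2.43, adjusted p = 0.0509). At harvest it was at 32.6 FPKM in Sangiovese, 4.48 in Barbera and 8.22 in Refosco, and at 86.0 and 123 FPKM in the Negroamaro-labelled and Primitivo-labelled columns.

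VIT_02s0025g04260 did not pass the threshold at softening (log2 change 1.69, SE 0.80, adjusted p = 0.0846 by limma) but rose from soft to harvested berries. It went from 0.851 FPKM in Sangiovese, 2.93 in Barbera, 20.8 in Negroamaro, 0.263 in Refosco and 3.47 in Primitivo to 40.4, 1.42 and 5.63 FPKM in Sangiovese, Barbera and Refosco, and 36.2 and 63.1 FPKM in the Negroamaro-labelled and Primitivo-labelled columns. The log2 change was 2.16 (SE 0.80, adjusted p = 0.0436 by limma, up in 4 of 5 cultivars, with Barbera the exception). The row's mean before softening was 0.741 FPKM, so it too met the level limit only through later columns. Its call was lost without Sangiovese (adjusted p = 0.215), without Refosco (0.123) and without Primitivo (0.162). For VIT_02s0025g04250 the same step gave 2.10 (SE 0.83, adjusted p = 0.0577), and in the 9 columns where both were at 1 FPKM or more its level was 0.808 to 3.37 times that of VIT_02s0025g04260, with a median of 2.24.

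VIT_02s0025g04230 and VIT_02s0025g04270 formed the other pair of this end. At harvest they were at 94.5 and 71.3 FPKM in Sangiovese and at 19.5 and 32.0 FPKM in the column labelled Negroamaro. In Barbera they were at 0.0546 and 0.144 FPKM, in Refosco at 0.656 and 0.465 FPKM, and in the column labelled Primitivo at 1.55 and 3.36 FPKM. Harvest levels were thus at least 19.5 FPKM under 2 labels and at most 3.36 FPKM under the other 3, and no step passed the threshold, the smallest adjusted p being 0.190 and 0.298 from soft to harvested berries. From 3.23 and 7.18 FPKM in soft berries, Primitivo fell by label and would rise to 19.5 and 32.0 FPKM with the columns exchanged. Negroamaro rose either way.

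Barbera pea-sized berries, the column only narrowly closest to its own cultivar over all rows (r = 0.159), stood apart in all 4 rows of this end. VIT_02s0025g04230 was at 9.004 FPKM there and at 0.195 to 0.883 FPKM in the other 4 cultivars. VIT_02s0025g04250 was at 6.23 against at most 0.7103 FPKM, VIT_02s0025g04260 at 4.44 against at most 0.583 FPKM, and VIT_02s0025g04270 at 38.8 against at most 1.99 FPKM. In touching berries of Barbera the same rows were at 0.317, 0.0408, 0.0628 and 0.992 FPKM, so the level of pea-sized berries was not seen at the next stage. Of the remaining rows VIT_02s0025g04320, which lies between the most abundant ones, was at 3.29 to 25.8 FPKM in all 20 columns and passed the threshold at no step, with log2 changes of -0.62, 0.30 and 0.13 in order.

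**Figure D2:**
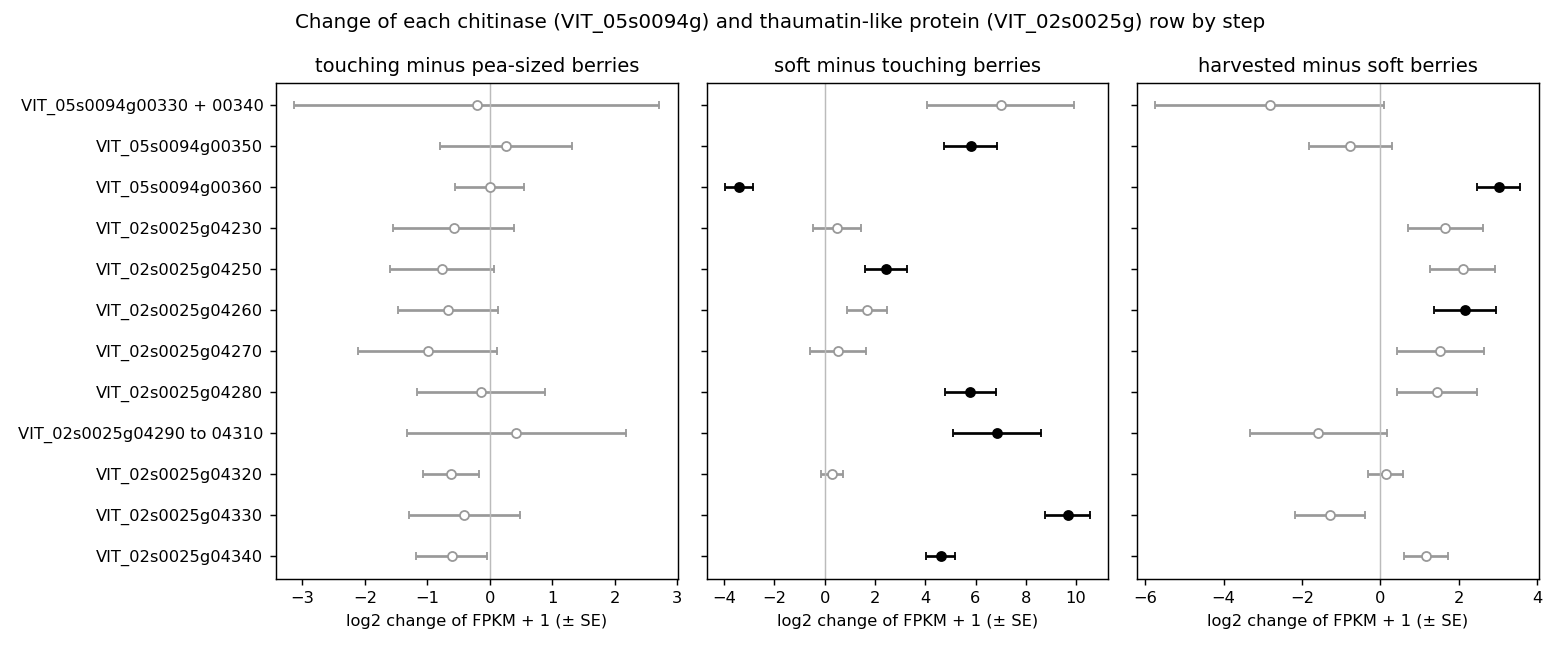
Log2 change of FPKM + 1 with its SE for each row (top 3 chitinases, lower 9 thaumatin-like proteins) at each of the 3 steps, from the fit over 5 cultivars, each panel with its own horizontal scale. Filled black points had an adjusted p under 0.05, and 7 of the 9 such points lie in the softening panel.

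Counted over the families, growth from pea-sized to touching berries gave no call by limma, with 0 of 12 rows rising and 0 falling, and 0 at an unadjusted p under 0.05. The background was 12.4% of all rows rising and 10.5% falling. A row has the same SE at every step, because its residual comes from all 20 columns. Spread at later stages and exact zeros thus enter the SE of this early step, 2.92 for the joined chitinase row. The lack of calls does not measure the spread of pea-sized and touching columns alone. At softening 6 of the 12 rose, against 13.9% of all rows, and 1 fell, against 41.5%. The 6 were VIT_05s0094g00350 and the thaumatin-like proteins VIT_02s0025g04250, VIT_02s0025g04280, the joined row of VIT_02s0025g04290 to VIT_02s0025g04310, VIT_02s0025g04330 and VIT_02s0025g04340. Of these VIT_02s0025g04250 met the level limit only through soft and harvested columns. Among the 10 rows that met it before softening, 5 rose and 1 fell, and the share over all rows that met it there was not computed. The median change of the 12 rows was 3.52 on the log2 scale, beside -0.26 over all rows tested. That background depends on the scaling. With upper-quartile scaling 24.0% of all rows rose and 28.5% fell at softening (median -0.04), with quantile normalization 29.7% and 24.4% (median 0.07), and with equal totals 8.58% and 53.8% (median -0.45), while 6, 7 and 6 of the 12 rose and 1 fell in each. From soft to harvested berries 2 rows rose, VIT_05s0094g00360 and VIT_02s0025g04260, against 14.9% of all rows, and 0 fell, against 24.5% (0 also at an unadjusted p under 0.05). The count of 2 ran from 1 to 4 as single cultivars were left out. With 9.95% to 15% of all rows rising there, the count was 1 without Sangiovese, Refosco or Primitivo and 4 without Negroamaro. It was 3 under each of the other scalings, where the shares of all rows rising and falling were 16.7% and 23.0% with upper-quartile scaling, 19.9% and 18.2% with quantile normalization, and 28.5% and 14.8% with equal totals.

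Over soft and harvested against pea-sized and touching berries, 8 of the 12 rows rose, with 23.5% of all rows rising, and 1 fell, with 51.2% falling. The counts were also 8 and 1 with upper-quartile scaling (34.2% and 40.5% of all rows), quantile normalization (42.4% and 33.4%) and equal totals (17.6% and 58.8%). The 8 were the 6 that rose at softening with VIT_02s0025g04260 and the joined chitinase row (log2 change 5.48, SE 2.07, adjusted p = 0.0261 by limma, and 10.21, adjusted p = 2.07e-09, with exact zeros missing). The call of the joined chitinase row with zeros kept did not hold without Sangiovese, Barbera or Refosco (adjusted p = 0.129, 0.135 and 0.165), nor with a pseudocount of 0.1 (log2 change 4.80, adjusted p = 0.1015 by limma). The level limit has a part in such counts. All 12 rows reach it over soft and harvested columns alone, but VIT_02s0025g04250 and VIT_02s0025g04260, with means of 0.957 and 0.741 FPKM over pea-sized and touching columns, do not reach it there, so their rise is partly built into their membership. Among the other 10 rows, 5 rose and 1 fell at softening, 1 rose from soft to harvested berries, and 6 rose and 1 fell over ripening. Shares over all rows that reach the limit before softening were not computed, so these counts have no background of their own.

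The sum of each family shows how much of the berry transcriptome they took. Chitinase rows summed to 78.4 ± 41.3 FPKM (SD, n = 5) in pea-sized and 78.6 ± 38.7 FPKM in touching berries, and thaumatin-like protein rows to 75.9 ± 57.4 and 68.2 ± 66.2 FPKM. In soft berries the chitinase sum was 5784 FPKM in Sangiovese, 9499 in Barbera, 239 in Negroamaro, 10234 in Refosco and 16227 in Primitivo, where the Negroamaro value lacks the joined row listed at 0. The thaumatin-like protein sum was 4258, 11167, 17363, 18291 and 2661 FPKM in the same order. Primitivo was thus highest for chitinases and lowest for thaumatin-like proteins in soft berries.

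As a share of all FPKM of a column, chitinases went from at most 0.0178% in pea-sized to at most 1.49% in soft berries, and thaumatin-like proteins from at most 0.0186% to at most 1.77%. From touching to soft berries the thaumatin-like protein sum was 33.3 times higher in Primitivo, 97.2 in Negroamaro, 113 in Sangiovese, 410 in Barbera and 1030 times higher in Refosco. For chitinases the factor was 110 in Sangiovese, 124 in Primitivo, 168 in Refosco and 232 in Barbera, and 2.21 in Negroamaro, where the joined row was listed at 0.

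From soft to harvested berries the families parted by cultivar. In Sangiovese both sums climbed, to 2.10 times for chitinases and 4.90 times for thaumatin-like proteins, reaching 12151 and 20858 FPKM. In Barbera they went to 0.648 and 0.512 times, and in Refosco to 0.634 and 0.366 times. The thaumatin-like protein sum went to 0.340 times in Negroamaro and 3.99 times in Primitivo by label, and to 0.612 and 2.22 times with the harvest columns exchanged, although the column labelled Primitivo lacks the joined row listed at 0. Chitinase sums of these harvest columns, 788 and 314 FPKM, both lack their leading row. A single column per cultivar and stage allows no test of these differences between cultivars.

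**Figure D3:**
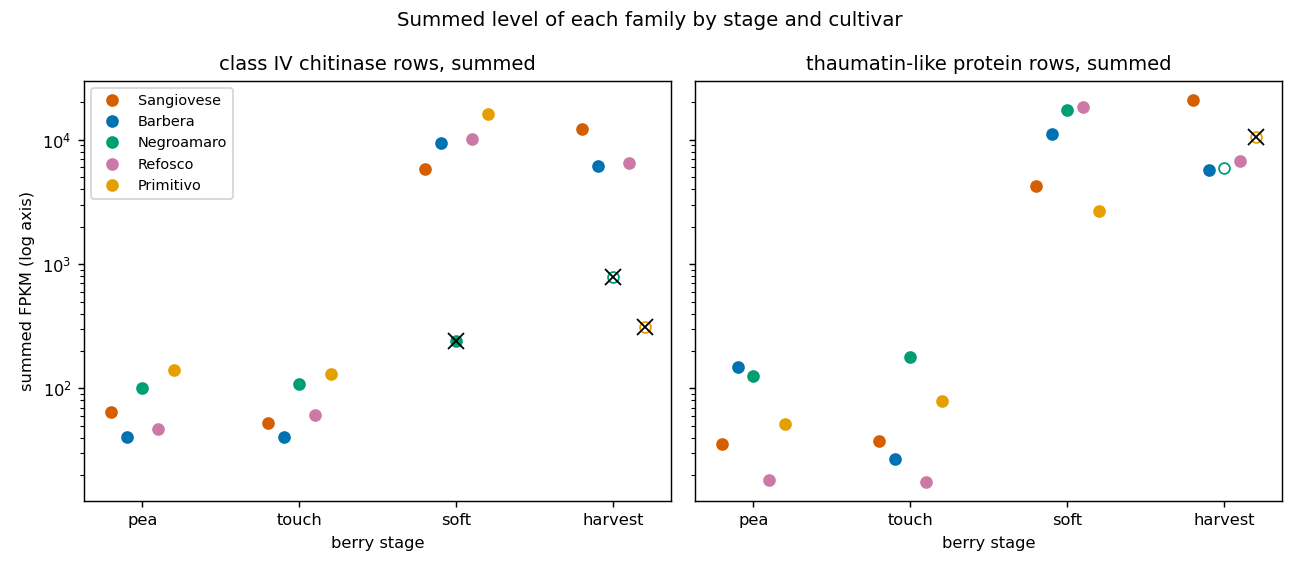
Summed FPKM of the 3 chitinase rows and the 9 thaumatin-like protein rows on a log axis, a point per cultivar and stage. Open points are the harvest columns labelled Negroamaro and Primitivo, and a black cross marks columns in which the leading row of the family was listed at 0. Sums of at most 179 FPKM before softening stand against at least 2661 FPKM afterwards wherever the leading row has a value.

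The make-up of the thaumatin-like protein sum changed between soft and harvested berries. VIT_02s0025g04330 held 60.1% of it in Sangiovese, 48.2% in Barbera, 57.3% in Negroamaro, 67.1% in Refosco and 53.9% in Primitivo soft berries, and the joined row of VIT_02s0025g04290 to VIT_02s0025g04310 held 33.5%, 45.8%, 36.1%, 28.0% and 40.5%. VIT_02s0025g04330 was therefore the largest part in 5 of 5 cultivars. At harvest the joined row was the largest part in Sangiovese (73.9%), Barbera (65.3%), Refosco (52.8%) and the column labelled Negroamaro (85.4%). In the column labelled Primitivo, where the joined row was listed at 0, VIT_02s0025g04330 held 59.6% and VIT_02s0025g04280 27.0%. Shares are of FPKM, a level per length, and neighbouring genes of such arrays can share reads, so the split within an array is less certain than its sum.

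Among chitinases, VIT_05s0094g00360 held 82.9% of the sum in Sangiovese, 86.9% in Barbera, 44.0% in Negroamaro, 97.1% in Refosco and 48.1% in Primitivo pea-sized berries, the largest part in each but Negroamaro, where the joined row of VIT_05s0094g00330 and VIT_05s0094g00340 held 54.5%. In touching berries the joined row was the largest part in Primitivo (54.1%) and VIT_05s0094g00360 in the other 4. In soft berries of Sangiovese, Barbera, Refosco and Primitivo the joined row held 92.6% to 99.9% and VIT_05s0094g00360 at most 0.0514%. In soft Negroamaro berries, where the joined row was listed at 0, VIT_05s0094g00350 held 96.0%.

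**Figure D4:**
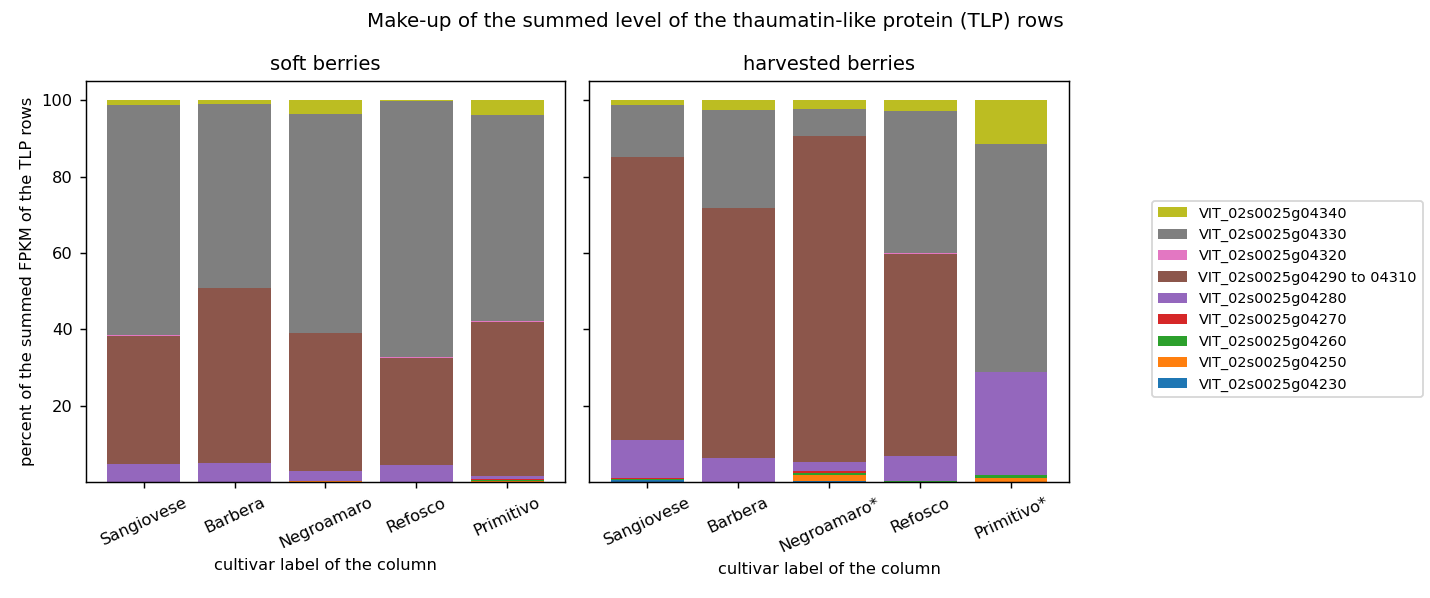
Percent of the summed FPKM of the thaumatin-like protein rows held by each row in soft and harvested berries, a bar per column, with asterisks on the harvest columns labelled Negroamaro and Primitivo. VIT_02s0025g04330 is the largest part of every soft bar, at 48.2% to 67.1%.

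Likeness of profile was uneven within the thaumatin-like protein array. Over the 20 columns, log2(FPKM + 1) of VIT_02s0025g04250 and VIT_02s0025g04260, which are neighbours by tag, correlated at r = 0.977, and it did so at r = 0.962 over the 10 soft and harvested columns alone. VIT_02s0025g04230 and VIT_02s0025g04270, which lie outside that pair on each side, correlated at r = 0.954 over all columns and at 0.971 over the soft and harvested ones. By contrast VIT_02s0025g04280 and VIT_02s0025g04330, with r = 0.929 over all columns, had r = 0.561 over the soft and harvested columns, and VIT_02s0025g04330 and VIT_02s0025g04340 had 0.914 and 0.221. VIT_02s0025g04340 was also close to VIT_02s0025g04250 (0.868, and 0.824 over the soft and harvested columns) and to VIT_02s0025g04260 (0.820 and 0.805). Over the pea-sized and touching columns the 4 rows at the start of the array correlated with each other at 0.927 to 0.985. These values include Barbera pea-sized berries, which stood far above every other pea-sized or touching column in all 4 rows. Correlations without that column were not computed, so likeness among the remaining early columns was not tested. Values of a column share a library and its scaling, and like copies may share reads.

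The chitinase VIT_05s0094g00360 had negative correlations over all columns with the other chitinases (r = -0.484 with the joined row and -0.412 with VIT_05s0094g00350) and with VIT_02s0025g04330 (-0.602). In the same order these were -0.294, 0.021 and -0.371 over the soft and harvested columns alone. Over the pea-sized and touching columns they were 0.222, -0.0148 and 0.319. Between families, the joined chitinase row and VIT_02s0025g04330 correlated at r = 0.549 with zeros kept and at 0.973 over the 17 columns without a zero, but at 0.0188 over the 10 soft and harvested columns with zeros kept.

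**Figure D5:**
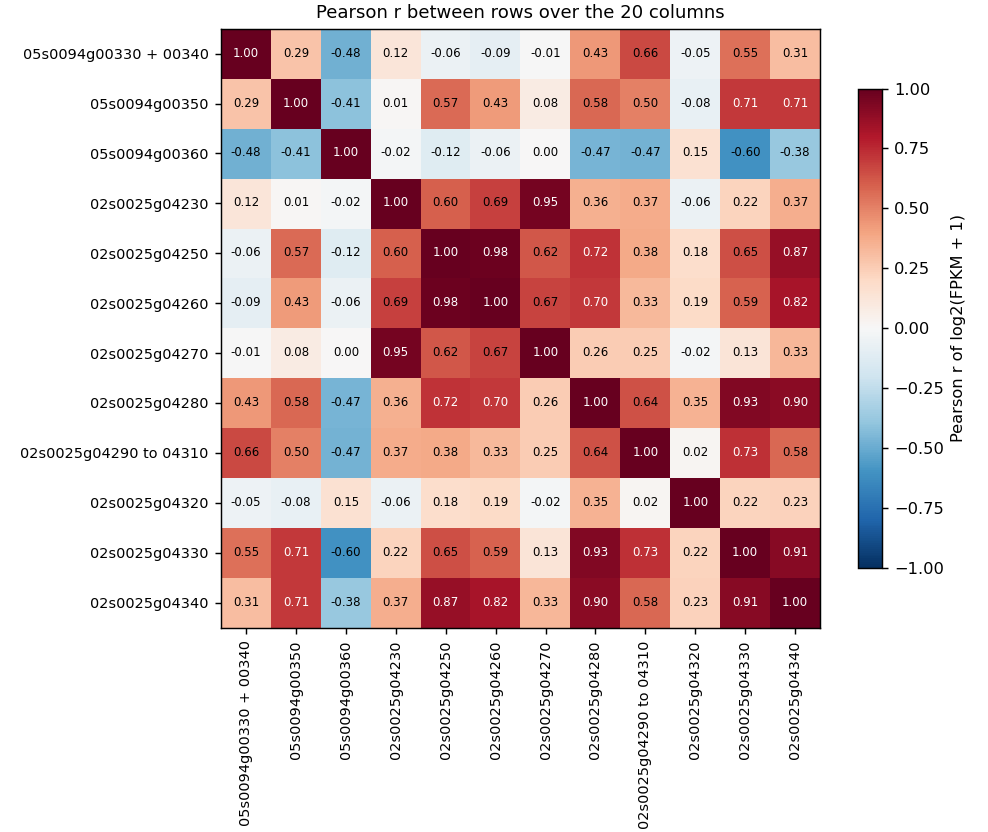
Pearson r of log2(FPKM + 1) between each pair of the 12 rows over the 20 columns, zeros kept, in tag order with chitinases first. Red squares near 1 mark VIT_02s0025g04250 with VIT_02s0025g04260 (0.977) and VIT_02s0025g04230 with VIT_02s0025g04270 (0.954), and the blue row is VIT_05s0094g00360.

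Rows elsewhere in the genome with the most similar profile were sought among the 10785 rows with a mean of at least 10 FPKM. With zeros kept, the closest to the joined chitinase row were VIT_04s0008g06490 (r = 0.771), VIT_14s0081g00020 (0.769) and VIT_00s0264g00060 (0.765), and the first of these only moved between 60.7 and 96.5 FPKM. Over the 17 columns where the chitinase row was above 0 they were VIT_11s0016g04920 (r = 0.980), VIT_01s0011g03670 (0.976) and VIT_05s0049g00510 (0.971), so the lists with and without zeros shared no row. For the joined thaumatin-like protein row the closest were VIT_04s0043g00760 (0.823), VIT_08s0007g00540 (0.815) and the row of VIT_01s0010g02900 and VIT_01s0010g02910 (0.813) with zeros kept. Over the 19 columns above 0 they were VIT_01s0011g03670 (0.970), VIT_01s0127g00680 (0.966) and VIT_08s0040g01200 (0.963). VIT_01s0011g03670 thus stood in both lists without zeros, at 0.590 to 6.14 FPKM before softening and at 279 to 1181 FPKM from softening on.

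Of the 40 rows nearest by tag to the thaumatin-like protein array, 20 on each side, 32 were tested, and at softening 1 rose and 15 fell, the log2 changes having a median of -0.29 and a maximum of 0.49. Of the 29 tested among the 40 rows around the chitinase array, 2 rose and 11 fell, with a median of -0.26 and a highest of 0.94. The background was 13.9% rising and 41.5% falling, and the flanking rows were not tested against it.

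Differences between cultivars averaged over stages were called in 1 of the 12 rows by limma's moderated F test, against 16.3% of all rows. This was VIT_05s0094g00350 (adjusted p = 0.0164), and the call did not hold without Sangiovese (adjusted p = 0.114) or without Primitivo (0.0599). Against the mean of the other 4 cultivars it was lower in Sangiovese by a log2 difference of -4.85 (SE 0.93, adjusted p = 0.00535 by limma, lower in 4 of 4 stages), where 1.19% of all rows were called lower and 1.36% higher (0 of the 12). With exact zeros missing, so that the values of 2 Sangiovese stages dropped out, the difference was -7.92 (SE 0.70, adjusted p = 3.17e-05). In limma's contrasts of the other cultivars 0 of 12 rows were called, as labelled, in either direction, and at an unadjusted p under 0.05 there was 1, VIT_05s0094g00350 in Primitivo. Of all rows, 0.654% were higher and 0.813% lower in Barbera, 0.33% and 0.341% in Negroamaro, 0.879% and 1.18% in Refosco, and 0.297% and 0.319% in Primitivo. With exact zeros missing, 1 row was called in each of 3 further cultivars. Of all rows, 0.649% were then higher in Barbera, 1.17% lower in Refosco and 0.33% higher in Primitivo. The joined chitinase row turned from a log2 difference of 0.57 (SE 2.58, adjusted p = 0.916 by limma) to -2.38 (SE 0.52, adjusted p = 0.0197) in Refosco, and its F test from an adjusted p of 0.616 to 0.0156 by limma. By stage, Refosco was lowest in this row in pea-sized and touching berries, at 1.15 and 0.381 FPKM. Its soft value of 9851 FPKM lay above Sangiovese and Barbera, and its harvest value of 6184 FPKM above Barbera. With zeros missing, VIT_05s0094g00350 was higher in Barbera (2.26, SE 0.51, adjusted p = 0.0251) and in Primitivo (3.59, SE 0.51, adjusted p = 0.0071 by limma). Here the repeats were the 4 stages, and p-values do not measure the spread between vines.

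The exchange was tried because it brings these harvest columns nearer to earlier columns of a cultivar in these same data. A gain in cultivar calls is therefore built into it. The F test then called 2 of the 12 rows, against 28.7% of all rows, where as labelled it called 1, against 16.3%. Once the doubtful pair of harvest columns was exchanged, more rows stood apart in single cultivars, as also happened over all rows. VIT_02s0025g04330 and VIT_02s0025g04340 were then higher in Negroamaro (log2 differences 2.29 and 1.81, adjusted p = 0.0233 and 0.0121 by limma), where 1.93% of all rows were higher. VIT_05s0094g00350 was higher in Primitivo (3.25, adjusted p = 0.0285), against 1.10% of all rows, and VIT_02s0025g04280 was lower there (-2.37, adjusted p = 0.0275), against 1.59%. With the pair of columns left out instead, VIT_02s0025g04330 alone of the 12 was called in Negroamaro (2.34, adjusted p = 0.0446, against 1.64% of rows higher) and 0 in Primitivo by limma (3 at an unadjusted p under 0.05), where VIT_05s0094g00350 gave 3.10 (adjusted p = 0.104).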

How the data were processed

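The deposited table holds FPKM values, which the authors computed from the libraries. Its name calls them means, and its 20 headers name a cultivar and a stage with no replicate, so each was taken as the authors' mean of the 3 labelled replicates. Per the labels' protocols, each library used 2.5 µg of RNA from about 400 mg of pericarp and a TruSeq kit without strand. TopHat2 2.0.6 and Cufflinks 2.0.2 are listed, per the submitters' processing notes. The build of the genome is likewise not given in the sources used here. Column totals ran from 787405 to 1096120 FPKM, and read depth is unknown, so no counting interval was computed. Because libraries carried no strand, antisense reads cannot be told apart. Of the locus tags, 0 matched the reference gene table, so lists of other chitinases, thaumatin-like proteins, glucanases and seed markers that depended on product names could not be used, and the labelled tissue was not checked against markers.

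Rows with a mean of at least 1 FPKM were fitted on log2(FPKM + 1) with limma 3.58.1 in R 4.3.3, with stage and cultivar as terms, 12 residual degrees of freedom, trended variances and two-sided p-values adjusted by Benjamini and Hochberg. Log2 changes on this scale understate changes of low rows. A cultivar stood apart at an adjusted p under 0.05 and 1 log2 unit or more from the other 4 averaged. Descriptions used Python 3.11.15 with numpy 2.4.6, pandas 2.3.3 and matplotlib 3.10.9. The fit was checked on simulated data with independent normal noise and few rows moved. These held no exact zeros or exchanged columns, so the check does not bear on either. Every row of the 2 tag ranges was named. For the leading row of each family the 3 most similar rows with a mean of at least 10 FPKM were named, and 20 flanking rows on each side were counted. The members and lists were chosen with earlier results of these data known. Alternatives were pseudocounts (0.1, 5), filters (none, 5 FPKM), upper-quartile, equal-total and quantile scaling, exact zeros as missing in rows reaching 10 FPKM, each cultivar left out, and the 2 doubtful harvest columns exchanged or left out. Exchanging them with zeros missing, similar rows without zero columns, and counts without rows under 1 FPKM before softening were added after the data were seen.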

Additional observations from a re-analysis of the deposited data

Results flagged for a closer look

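Among the 48 groups of 5 cultivars formed by 12 rows and 4 stages, 9 held a column far from the other 4 on the log2 scale. Chance alone flags about 1 in 20 such groups, and the rows are not independent. Barbera pea-sized berries were high in VIT_02s0025g04230 (9.004 FPKM), VIT_02s0025g04250 (6.23 FPKM), VIT_02s0025g04260 (4.44 FPKM) and VIT_02s0025g04270 (38.8 FPKM), where no other cultivar passed 1.99 FPKM. Negroamaro touching berries were high in VIT_02s0025g04320, at 15.7 FPKM against 6.04 to 6.49 FPKM. The harvest column labelled Primitivo was high in VIT_02s0025g04340, at 1218 FPKM against 134 to 241 FPKM. The same column was listed at 0 FPKM in the joined row of VIT_02s0025g04290 to VIT_02s0025g04310, against 3538 to 15405 FPKM. Negroamaro soft berries were listed at 0 FPKM in the joined row of VIT_05s0094g00330 and VIT_05s0094g00340, against 5781 to 15378 FPKM. Sangiovese soft berries were low in VIT_05s0094g00350, at 1.26 FPKM against 229 to 845 FPKM. With a single column per cultivar and stage, differences in a step between cultivars were not tested.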

How the results depend on the processing

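Of the 1180 values recomputed under alternatives, 21 changed sign, all of them changes or differences of single rows. The counts and sums among the 1180 cannot change sign. Of the other single-row values 813 kept their sign and call, 26 gained a call and 13 lost it. Of the counts, 196 stayed near the main count and 23 moved. The joined chitinase row in Refosco turned from 0.57 to -2.38 with zeros missing, with the harvest columns exchanged or not, and passed the threshold there. It was -1.09 with those columns left out and ran from -0.59 to 1.18 with a cultivar left out. None of the other sign changes passed the threshold in either setting. With zeros missing, the soft to harvested change of the joined thaumatin-like protein row turned to 0.89 (1.28 with the harvest columns also exchanged), and that of the joined chitinase row to 0.40 in both. With the doubtful harvest columns left out these were 1.44 and 2.48, and without Primitivo the former was 0.53. VIT_02s0025g04320 turned to -0.0022 without Refosco and -0.34 without Primitivo at this step, and over ripening to -0.10 at equal totals and -0.25 without Refosco. With a cultivar left out, these 2 changes of VIT_02s0025g04320 reached 0.54 and 0.25 at most, and that of the joined thaumatin-like protein row was -2.84 at its lowest. From pea-sized to touching berries the ranges were -0.79 to 0.0077 for VIT_02s0025g04230, -0.38 to 0.33 for VIT_02s0025g04280, -0.083 to 0.35 for VIT_05s0094g00350 and -0.16 to 0.13 for VIT_05s0094g00360. Calls at softening ran from 5 to 6 rising with 1 cultivar left out, where 11.4% to 12.8% of all rows rose. They were 7 with a pseudocount of 0.1 (14.2% of all rows), quantile normalization (29.7%), zeros missing (13.9%) or the harvest columns left out (15.1%). Over ripening 7 rose with a pseudocount of 0.1 (23.5% of all rows) and 7 to 8 with a cultivar left out (21.3% to 23.4%). From soft to harvested berries 1 row rose with a pseudocount of 0.1 (15% of all rows), no filter (12.3%) or the harvest columns left out (15%). With a cultivar left out 1 to 4 rose, against 9.95% to 15% of all rows. The F test over cultivars called 0 rows with a pseudocount of 5 (15% of all rows) and 2 with zeros missing (16.4%). It called 2 with the columns exchanged and 3 with both (28.7% of all rows each), and 0 to 1 with a cultivar left out (5.27% to 14%). With zeros missing 1 row stood apart in each of Barbera, Refosco and Primitivo. With the columns exchanged 2 did in Negroamaro and 2 in Primitivo, and with both, 3 in each and 1 in Barbera and Refosco. With the columns left out 1 did in Negroamaro. In these settings 0.308% to 1.94% of all rows were called in a given direction per cultivar. The causes were not tested. All 88 recomputed family sums stayed within 1 SD over cultivars of the main mean. That limit is wide, and leaving out a single cultivar of the 5 cannot move a mean so far. No paired analysis was possible because the columns carry no replicate number to block on, while cultivar was a term of every fit. Read depth is unknown, so no limit from it can be given.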
